A study of Mus musculus with 3 samples.

Results

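The Notch pathway of mouse embryoid bodies was followed through 10 genes, chosen by name as ligands, receptors and targets of neural and vascular tissue. They were the ligands Dll1, Dll3 and Jag1, the receptors Notch1, Notch2 and Notch3, and the target genes Hes1, Hes5, Hey1 and Hey2. All of their probes on the array were used, 14 of 39429 probes, and 13 of them were bright enough to be tested. Embryoid bodies are floating aggregates in which mouse embryonic stem cells differentiate into tissues of all germ layers. They were grown in suspension for 10 days with no LIF, a cytokine used to keep such cells self-renewing. The mutant, labelled Dido3deltaCT+HADidoNT, carried a C-terminal truncation of Dido3 and overexpressed an HA-tagged N-terminal region of Dido, which is common to its isoforms and holds a PHD domain. The other group was the labelled Wildtype control, cultured in parallel for the same 10 days. The mutant therefore carried a truncation together with an overexpressed fragment, and the effects of these cannot be told apart. The labels give 3 biological replicates per genotype, and say neither how many clones they came from nor what drove the HA-tagged fragment.

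RNA of the whole aggregates was hybridised on 3 arrays in 2 colours, a mutant sample against a wild-type sample on each. Array 2 alone had the mutant in Cy5, while arrays 1 and 3 had it in Cy3, and so the exchanged dyes of array 2 and its replicate cannot be told apart. Median spot intensity was 192 to 288 units in green and 150 to 210 units in red, and 64.8% to 76.0% of spots were well above the local background. With 3 arrays the precision of each value is limited. Levels are normalised intensities and compare samples within a probe, not probes with each other. Ratios are log2 of mutant over wild type, so that a positive value means higher in the mutant. They are given with the SD over the arrays (n = 3). In RNA of whole aggregates, fewer cells of a type and less RNA per cell cannot be told apart.

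Notch receptors are cell surface proteins that bind ligands of the Delta and Jagged families on neighbouring cells. Ligand binding leads to cleavage of the receptor, and its freed intracellular domain joins the DNA-binding protein Rbpj to switch on the Hes and Hey genes, which encode repressors. In the developing nervous system Dll1 and Hes5 are part of the exchange between differentiating neurons and progenitors, while in blood vessels Jag1, Notch3, Hey1 and Hey2 act in arterial and mural cells.

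The neural genes Dll1, Dll3 and Hes5 were measured at lower levels in the mutant on all 3 arrays, and the vascular target Hey2 at higher levels on all 3. Hes5 had the largest mean difference among the lower genes, -3.17 ± 2.38, and Hey2 was at 0.88 ± 0.37. Jag1 was lower on every array, whereas Notch3, Hes1 and Hey1 took both signs. None of these differences passed the test. The limma test sets each probe's 3 ratios against 0, with the probe's own spread drawn toward a value common to all probes. In it 0 of the 13 probes had a Benjamini-Hochberg adjusted p below 0.05, and their adjusted p ran from 0.053 to 0.986. Over all 25496 probes tested, 664 passed, or 2.60%, with 1.92% higher and 0.682% lower. Without adjustment 7 of the 13 probes had p below 0.05, 2 higher and 5 lower, against 21.0% of all probes tested. Mutant and wild-type levels did not overlap for the same number of probes, 7 of 13, with 2 higher and 5 lower, against 22.5% of all probes tested. Across all probes, no overlap with higher mutant levels was found for 13.4% and with lower mutant levels for 9.16%. Of the 13 probes, 2 were higher on all 3 arrays and 6 lower on all 3, against 23.0% and 19.9% of all probes tested. In each of these counts the higher probes were that of Hey2 and a Notch1 probe with a repeat run, described below. The lower probes included both probes of Dll3 each time, and the 6 lower on all arrays also a dim Notch2 probe. The count changed with the array left out. Without replicate 2, the array with the dyes exchanged, the Dll1, Dll3, Jag1 and Hes5 probes and a Notch1 probe, 6 in all, passed in limma, as did 7191 of all probes. Without replicate 1 or replicate 3 none of the 13 passed.

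**Figure D1:**
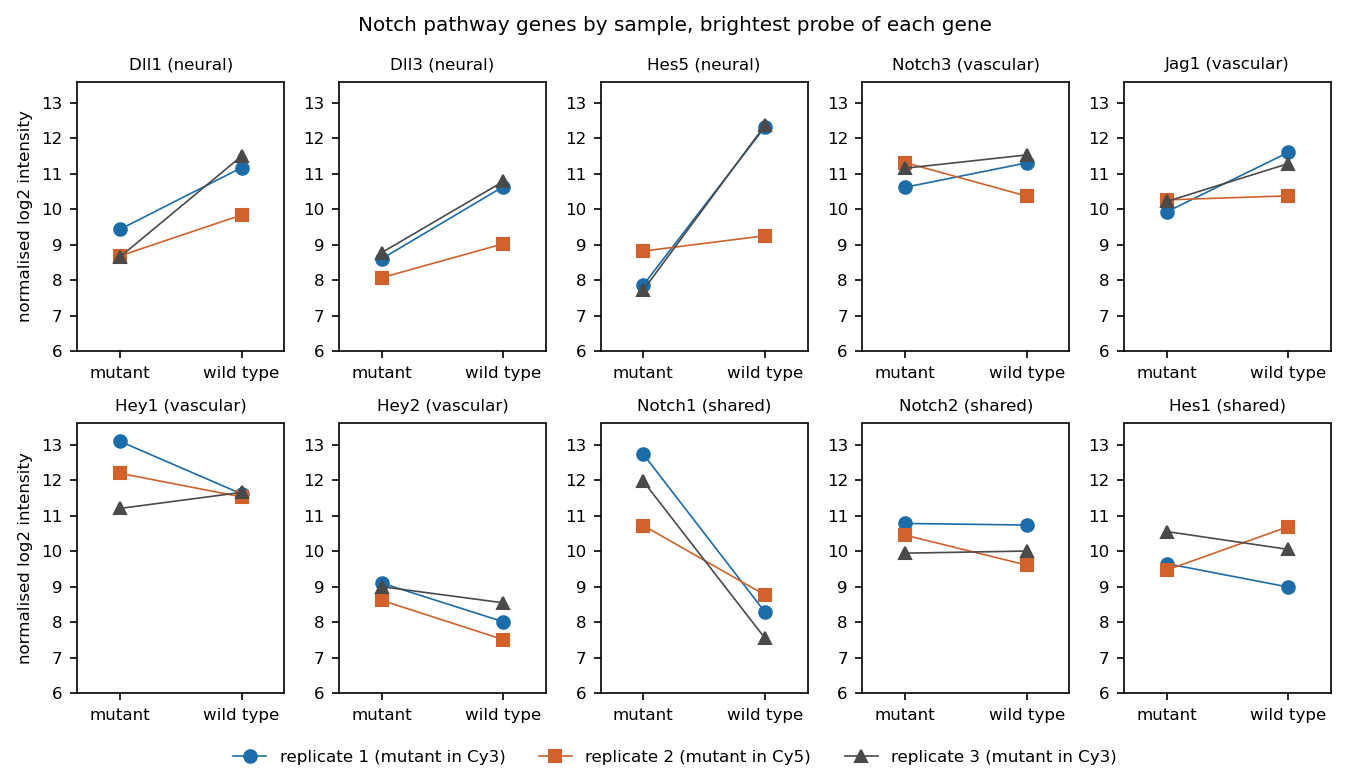
Log2 of the normalised intensity of the brightest probe of each of the 10 genes, with mutant samples left of wild-type samples and a line joining the 2 RNAs of each array, shown by colour and marker. For Dll1, Dll3 and Hes5 the wild-type samples of arrays 1 and 3 stand far above the mutant ones. The wild-type sample of array 2 lies close to the mutant samples for Dll3 and Hes5, and between the mutant and the other wild-type samples for Dll1.

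Dll1 encodes a Delta-type ligand that activates Notch on the neighbouring cell. Its main probe, at chr17:15504623-15504682 on the minus strand of mm9, had normalised intensities of 693, 413 and 404 in mutant replicates 1, 2 and 3, against 2310.4, 917 and 2892 in the wild type. All mutant levels lay below all wild-type levels, and the wild-type sample of array 2 was the lowest of its group. The ratios were -1.74, -1.15 and -2.84, a mean of -1.91 ± 0.86 with a 95% confidence interval of -2.86 to -0.96 and a limma adjusted p of 0.073. This mean equals a level 3.76-fold lower in the mutant. The probe is printed 10 times on each array, and the SD of the ratio over these spots was 0.058, 0.067 and 0.050 on arrays 1, 2 and 3. The difference between arrays was thus many times larger than the difference between spots of an array.

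A second Dll1 probe, at chr17:15513726-15513785, was well above background on 0 mutant arrays and on 2 wild-type arrays, and was not tested. Its intensities were 82.3, 83.3 and 80.1 in the mutant, against 81.0, 87.4 and 85.9 in the wild type. These are levels at which a difference of the size seen for the bright probe could not be measured.

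Dll3 encodes a divergent Delta family member that stays mostly inside the cell and is known from the segmenting mesoderm and from neural tissue. Its brighter probe, at chr7:29078763-29078822, had intensities of 389.8, 269.9 and 439.9 in the mutant, against 1595, 523 and 1765 in the wild type. The groups did not overlap, and again the lowest wild-type level was that of array 2. The ratios were -2.03, -0.95 and -2.004, a mean of -1.66 ± 0.61 with an interval of -2.42 to -0.91 and a limma adjusted p of 0.062. The other Dll3 probe, at chr7:29079061-29079120, gave -2.18, -0.49 and -2.16, a mean of -1.61 ± 0.97 with a limma adjusted p of 0.118. Both probes had the same order of arrays, with the difference on array 2 the smallest.

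Jag1 encodes the Jagged ligand best known from arteries, where it is presented to the smooth muscle layer. Its probe at chr2:136907433-136907492 had intensities of 976, 1232 and 1195 in the mutant, against 3119, 1333 and 2504 in the wild type. The groups did not overlap, although mutant and wild type differed little on array 2. The ratios were -1.68, -0.11 and -1.07, a mean of -0.95 ± 0.79 with an interval of -1.84 to -0.06 and a limma adjusted p of 0.216. Placed among the vascular genes by its role, Jag1 thus lay on the side of the neural ligands in its ratios.

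Notch1 encodes the receptor shared by neural progenitors and endothelium, and its probes gave opposite pictures. The probe at chr2:26314630-26314689 on the minus strand had intensities of 212, 197 and 194 in the mutant, against 222, 158 and 277 in the wild type. The groups overlapped, with ratios of -0.07, 0.32 and -0.52, a mean of -0.09 ± 0.42 with an interval of -0.70 to 0.52 and a limma adjusted p of 0.871. The brighter probe, at chr2:26319440-26319499, had intensities of 6815, 1694 and 4017 in the mutant, against 313, 437 and 188 in the wild type. The groups were far apart, with ratios of 4.45, 1.96 and 4.42, a mean of 3.61 ± 1.43 with an interval of 2.15 to 5.07 and a limma adjusted p of 0.053. A gene that was 12.2-fold higher by one probe and near equal by the other has no settled direction here.

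The brighter Notch1 probe is shown for its run of 4 GAA triplets, in capitals, at positions 37 to 48 counted from the 5′ end of the probe as deposited.
Notch1 probe at chr2:26319440-26319499 (mm9, minus strand): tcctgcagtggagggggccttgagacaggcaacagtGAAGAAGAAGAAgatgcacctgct
This feature was chosen after the values were seen. Among all probes tested, 65 held a run of at least 4 GAA triplets, this one included, and their median ratio was 3.66, against -0.01 over all 25496 probes. Of the 65 probes, 62 were higher in the mutant on all 3 arrays, and 55, or 84.6%, had a mean log2 ratio above 2, as did 1.55% of all probes tested. Their array medians were 4.63, 1.86 and 4.37, close to the 4.45, 1.96 and 4.42 of the Notch1 probe. The 17 probes with exactly 4 triplets, the Notch1 probe among them, had a median of 2.34. Their array medians of 3.01, 1.53 and 2.79 lay below the Notch1 values. The 69 probes with 3 triplets had a median of 0.50. In limma, 17 of the 65 passed the adjusted threshold, all of them higher. Not all followed, since the Pdia5 probe was at -0.54 and the Sec61b probe at 0.15. The part of the run in the Notch1 value was not tested, and the Notch1 probe without such a run is given beside it above.

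**Figure D2:**
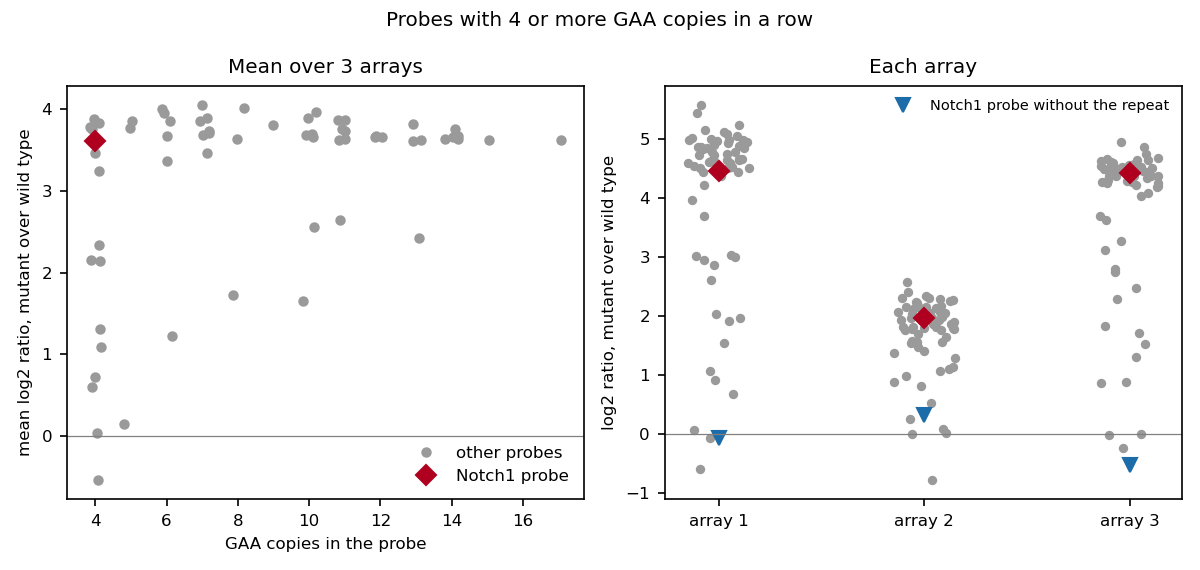
Log2 ratio of mutant over wild type for probes with a run of at least 4 GAA triplets (grey points), as the mean over arrays against the number of triplets on the left and on each array on the right, with the Notch1 probe that holds the run as a red diamond. On each array the diamond, at 4.45, 1.96 and 4.42, lies within the main body of grey points, and the Notch1 probe without the run (blue triangle) lies nearer to 0.

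Notch2 encodes a receptor of broad expression, and showed no difference beyond the spread. Its brighter probe, at chr3:97953914-97953973, had intensities of 1765, 1406 and 988 in the mutant, against 1712, 783 and 1030.3 in the wild type. The groups overlapped, and the ratios of 0.04, 0.85 and -0.06 gave a mean of 0.28 ± 0.50 with an interval of -0.39 to 0.94 and a limma adjusted p of 0.602. The dim probe at chr3:97951233-97951292, well above background on 2 mutant and 3 wild-type arrays, was at -0.07, -0.16 and -0.23.

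Notch3 encodes the receptor of vascular smooth muscle and pericytes. Its probe at chr17:32257848-32257907 had intensities of 1576, 2551 and 2286 in the mutant, against 2538, 1326 and 2962 in the wild type. The groups overlapped, with the mutant higher on array 2 and lower on arrays 1 and 3. The ratios of -0.69, 0.94 and -0.37 gave a mean of -0.04 ± 0.87, with an interval of -0.997 to 0.92 and a limma adjusted p of 0.967. An interval this wide leaves room for close to a 2-fold difference in each direction.

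Hes5 encodes a repressor that keeps neural progenitors from differentiating. Its probe at chr4:154336347-154336406 had intensities of 234, 454 and 212 in the mutant, against 5118, 612 and 5294 in the wild type. The groups did not overlap, but the 3 wild-type samples fell far apart, with that of array 2 nearer to the mutant samples than to the other wild-type samples. Before background correction and normalisation the spread was the same in kind, with mean spot intensities of 202, 476 and 309 in the mutant, against 3816, 579.7 and 6209 in the wild type. The ratios were -4.45, -0.43 and -4.64, a mean of -3.17 ± 2.38 with an interval of -5.52 to -0.82 and a limma adjusted p of 0.147. Of all probes tested, 4.15% were at least 2-fold lower in the mutant on both arrays 1 and 3, as were Dll1, Dll3, Jag1 and Hes5. This cut leaves out array 2 and was chosen after the values were seen, so it is a description only. Arrays 1 and 3 both had the mutant in Cy3, and genotype and dye cannot be told apart in it.

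Hes1 encodes a repressor found in many tissues downstream of Notch and of other signals. Its probe at chr16:30067820-30067879 had intensities of 805, 711 and 1507 in the mutant, against 510.0, 1661 and 1063 in the wild type. The ratios of 0.66, -1.22 and 0.50 averaged -0.02 ± 1.04, with a limma adjusted p of 0.986. The sign on array 2 was opposite to that on arrays 1 and 3, the reverse of Notch3.

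Hey2 encodes a repressor of arterial endothelium and of the ventricular heart muscle. Its probe at chr10:30552729-30552788 had intensities of 552, 394 and 514 in the mutant, against 259, 183 and 375 in the wild type. All mutant levels lay above all wild-type levels. The ratios of 1.09, 1.11 and 0.45 gave a mean of 0.88 ± 0.37, 1.85-fold higher in the mutant, with an interval of 0.30 to 1.47 and a limma adjusted p of 0.121. This was the most even of the vascular genes over the arrays.

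Hey1 encodes the related repressor of endothelium, heart and other mesoderm. Its probe at chr3:8663432-8663491 had intensities of 8775, 4700.3 and 2367 in the mutant, against 3141, 2964 and 3235 in the wild type. The wild-type levels were alike, and the mutant levels lay on both sides of them. The ratios of 1.48, 0.67 and -0.45 gave a mean of 0.57 ± 0.97, with an interval of -0.48 to 1.61 and a limma adjusted p of 0.493.

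**Figure D3:**
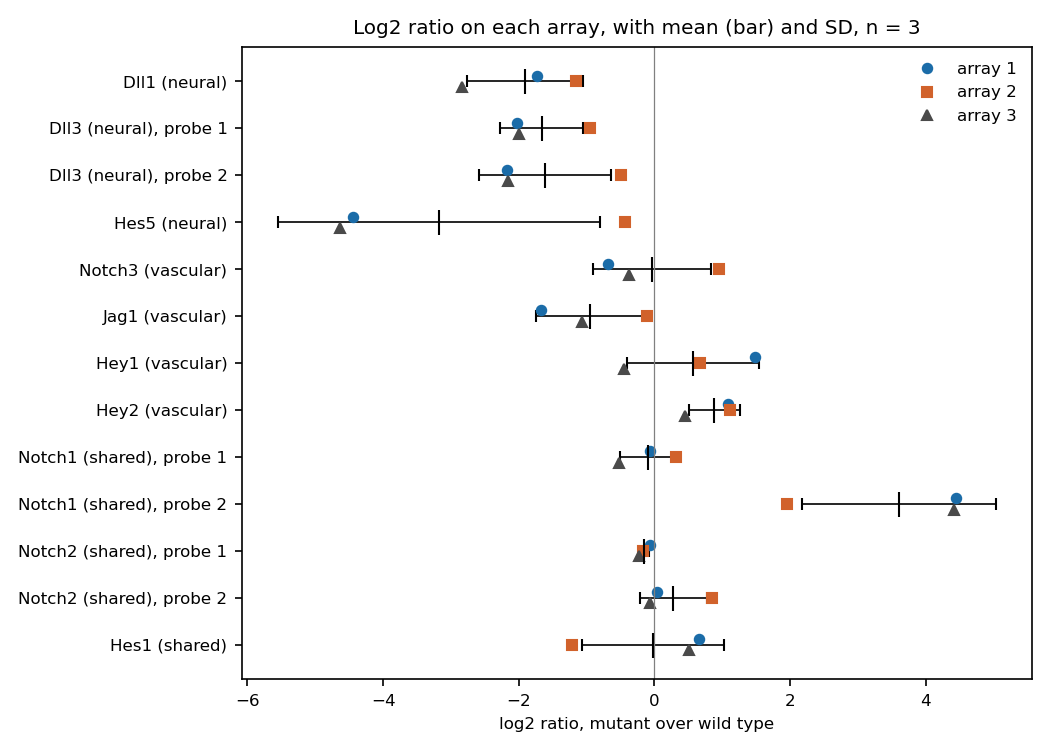
Log2 ratio of mutant over wild type on each of the 3 arrays for the 13 tested probes, grouped into neural, vascular and shared genes, with the mean (vertical bar) and SD (line). Notch1 probe 2 is the one with the GAA run. Dll1, Dll3 and Hes5 lie below 0 on every array, with array 2 nearest to 0, and Hey2 lies above 0 on every array.

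The promoters of the genes were read for the letters bound by the pathway's own transcription factor. RefSeq sequences (GRCm38.p6) from 250 bases before to 10 after the start were searched for GTGGGAA or its reverse complement TTCCCAC, a form of the sequence bound by Rbpj. There were 9 promoters of 8 of the genes, and 2 held the motif, those of Hes5 and Hey2, each in 2 places. Over 32851 mouse promoters of this length, 5.58% held it at least once and 0.186% at least 2 times. The promoters of these 2 genes, which had opposite signs in the mutant, are shown with the motifs in capitals.
Hes5 promoter at chr4:154960673-154960932 (GRCm38.p6, plus strand): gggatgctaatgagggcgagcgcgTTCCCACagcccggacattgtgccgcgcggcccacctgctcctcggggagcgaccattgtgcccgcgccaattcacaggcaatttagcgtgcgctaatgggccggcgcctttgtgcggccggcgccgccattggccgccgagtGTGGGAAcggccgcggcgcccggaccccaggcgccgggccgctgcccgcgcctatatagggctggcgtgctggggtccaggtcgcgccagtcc
Hey2 promoter at chr10:30842774-30843033 (GRCm38.p6, minus strand): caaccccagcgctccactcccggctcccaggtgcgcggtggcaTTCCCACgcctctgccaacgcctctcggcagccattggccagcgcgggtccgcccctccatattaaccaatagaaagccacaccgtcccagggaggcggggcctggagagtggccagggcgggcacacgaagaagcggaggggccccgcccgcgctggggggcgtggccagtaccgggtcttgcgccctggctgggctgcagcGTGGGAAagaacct
Both promoters hold 1 match in each orientation. A match is a description of these letters and not a bound site, and binding was not measured. Hes1 and Hey1 were not searched.

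Grouped by role, Dll1, Dll3 and Hes5 stood for neural tissue, and Notch3, Jag1, Hey1 and Hey2 for vessels, with the brightest probe of each gene. The median ratio of the neural genes was -2.03, -0.95 and -2.84 on arrays 1, 2 and 3, a mean of -1.94 ± 0.95. That of the vascular genes was 0.20, 0.80 and -0.41, a mean of 0.20 ± 0.61. The neural median lay below the vascular one by -2.23, -1.76 and -2.43, a mean difference of -2.14 ± 0.34. As analysed it varied less over arrays than either median, and this spread changed with the processing, as given below. The difference is a description of genes chosen for their roles and was not tested. Hes1, Notch1 and Notch2, shared by both tissues, had medians of 0.66, 0.85 and 0.50, in which Notch1 enters with the probe that holds the GAA run. Over all 10 genes the median was -0.03, against -0.01 over 19667 genes.

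Markers of the tissues were read beside these genes. The 8 markers of neural progenitors had summed intensities of 5403, 9938 and 23343 in the mutant, against 64142, 25430.0 and 63987 in the wild type. The groups did not overlap, but without Otx2, a head neuroectoderm factor and the brightest of the 8, they did, at 3182, 3525 and 6087 in the mutant against 30624.7, 5470.3 and 39760.6 in the wild type. None of the 8 passed the test, 6 were lower on all arrays, and the array medians of -3.49, -0.57 and -2.70 were again smallest in size on array 2. Sox1, a transcription factor of the neural plate, was at -4.21, -0.68 and -4.43, near the values of Hes5. The 8 neuronal markers summed to 6570.0, 5895 and 6402 in the mutant, against 12878, 3920.0 and 31274 in the wild type, so that these sums overlapped, with the lowest in the wild-type sample of array 2. The adhesion gene Ncam1, at 0.20 ± 1.86, made up 52.6% to 78.5% of the mutant sums, against 24.3% to 43.8% of the wild-type sums. Of the 8 markers 6 were lower on all arrays, while Ncam1 and Elavl3, an RNA-binding protein gene at 0.28 ± 0.68, took both signs. Stmn2, a tubulin-binding protein of growing axons, fell by 1.76 ± 0.52 with a limma adjusted p of 0.0499, and no other neuronal marker passed the test. Low levels of most neural markers thus accompanied low Dll1, Dll3 and Hes5 in the mutant. In the wild-type sample of array 2 both marker sums were the lowest of their group, but not every marker was low. Stmn2 had a log2 level of 10.47 there, against 9.73 and 11.35 in the other wild-type samples and at most 10.15 in the mutant. Otx2 had an intensity of 19960 there, the lowest of the wild-type samples, against 33517 and 24227 in the others. It was still above the mutant samples, which reached at most 17256. The part of these markers' tissues in the values of Dll1, Dll3 and Hes5 was not tested.

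The 10 markers of endothelium summed to 58542, 34153 and 31944 in the mutant, against 18452, 17125 and 13482 in the wild type, and 7 were higher on all arrays. In limma 2 of the 10 rose, the VEGF receptor genes Flt1 by 3.06 ± 0.39 with an adjusted p of 0.031 and Kdr by 2.27 ± 0.59 with an adjusted p of 0.041. Cdh5, Eng and Sox17 took both signs, at -0.03 ± 0.40, 0.16 ± 0.30 and 0.50 ± 0.50. Sox17, the brightest of the list, made up 33.7% to 43.0% of the mutant sums, against 59.5% to 68.6% of the wild-type sums. The 8 markers of smooth muscle and pericytes summed to 40781 to 47340 in the mutant, against 9048 to 22315 in the wild type, and 5 were higher on all arrays. Acta2, smooth muscle actin, rose by 2.36 ± 0.14 with a limma adjusted p of 0.031, while the others did not pass and Cnn1, calponin, was at -2.02, -1.66 and 0.69. Acta2 made up 67.9% to 69.1% of the mutant sums, and without it the sums overlapped, at 12616.6 to 15178 in the mutant against 4092.5 to 15457 in the wild type. Erg and Rgs5 were not above background on any wild-type array, and every other tested marker of these lists was above it on at least 1 array of each genotype. Endothelial marker sums thus did not overlap between genotypes, while Jag1, Notch3 and Hey1 had no shared direction. All 8 markers of heart muscle, where Hey2 also acts, were higher on every array, 4 of them past the adjusted threshold in limma, with sums of 22008 to 86164 in the mutant and 5241 to 10544 in the wild type. The part of these tissues in the values of Hey2 was not tested. Of 6 presomitic mesoderm markers, the other tissue of Dll1 and Dll3, Msgn1, Ripply2 and Uncx were too dim to be tested, and the other 3 summed to 775 to 1102 in the mutant and 900 to 1050.0 in the wild type, with none passing the test. T and Mesp2 were lower on all arrays, at -0.70 ± 0.22 and -0.32 ± 0.14, while Tbx6 was at 1.27, -0.38 and 0.96. Tbx6, the brightest of these, made up 53.6% to 69.6% of the mutant sums and 31.0% to 66.6% of the wild-type sums. All 6 markers of visceral endoderm, a tissue of the outer layer of embryoid bodies, were higher on all arrays, with sums of 285833 to 477412 in the mutant and 60298 to 129780.0 in the wild type, and Ttr, transthyretin, rose by 2.59 ± 0.69 with a limma adjusted p of 0.040. The 6 pluripotency markers had array medians of -2.21, -2.12 and 0.88, and none passed the test.

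**Figure D4:**
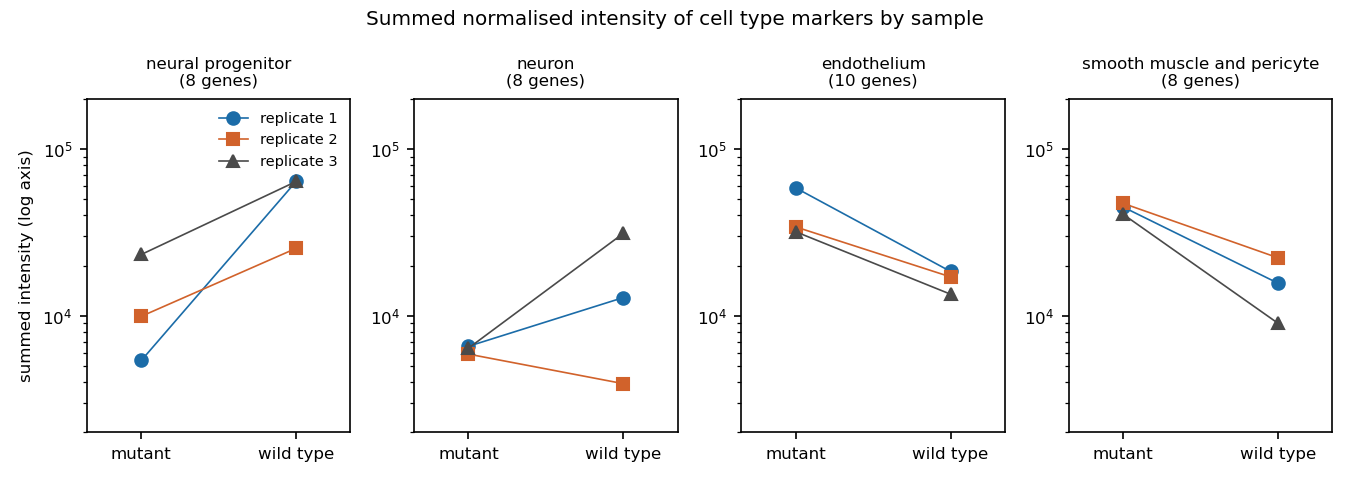
Summed normalised intensity (log axis) of 4 marker lists in each sample, with mutant samples left of wild-type samples and a line joining the replicates that shared an array. The neural progenitor sum is lower in the mutant on all arrays and lowest among wild-type samples on array 2, and the endothelial and smooth muscle sums are higher in the mutant on all arrays.

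For Hes5, Dll1, Notch3 and Hey1, the genes with the most similar pattern were taken as those with the smallest Euclidean distance over the 3 array ratios, among 16023 genes with a symbol. With 3 arrays this measure rests on 3 numbers, and all genes share the same RNA samples. Nearest to Hes5 were Zic4 at a distance of 0.392 and Sox1 at 0.407, both transcription factor genes of neural tissue, and then Dach1 at 0.648. Nearest to Dll1 were Cpe, a peptide-processing enzyme of neuroendocrine cells, at 0.249, the forebrain factor Six3 at 0.404 and Pou6f1 at 0.432. Nearest to Notch3 were Id3, an inhibitor of helix-loop-helix factors, at 0.0746 and Mtap at 0.0976. Hey1 had Pld5 at 0.364, B3gnt9 at 0.461 and the retinoic acid receptor gene Rarb at 0.515. None of these genes passed the adjusted threshold in limma.

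The rest of the pathway was described through 55 further genes, of which 49 were tested. In limma 0 of the 49 passed the adjusted threshold, against 2.53% of 19667 genes, and 10 had an unadjusted p below 0.05, 5 higher and 5 lower, against 20.2% of all genes. On all 3 arrays 7 were higher and 14 lower, or 14.3% and 28.6%, against 22.5% and 19.1% of all genes, and the median ratio was -0.20, against -0.01 over all genes. Dtx2, Adam10, Hes3, Nrarp and Atoh1 were too dim to be tested, and Aph1c was not found by name.

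Among the 5 enzymes that put sugars on Notch, Lfng, the Fringe that modifies how Notch responds to its ligands, had the smallest p of the 49 genes. Its ratios of -2.52, -1.17 and -2.60 gave a mean of -2.10 ± 0.80 with a limma adjusted p of 0.058. The related Mfng was at -2.20, 0.20 and -2.93 and took both signs, and Rfng was at 0.43 ± 0.20. Lfng thus had the pattern of Dll1 and Dll3, and the Fringe genes did not share a direction.

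Among the other ligands, Dner, a neuronal membrane protein described as a Notch ligand, was at -0.77, -0.96 and -1.64, with a mean of -1.12 ± 0.46 and a limma adjusted p of 0.093. Dll4, the Delta ligand of arteries, was at 0.68, 0.84 and -0.31, and Dlk2, a non-canonical family member, at -0.47 ± 0.31. None of the 6 genes of this group was higher on all arrays, and 2 were lower on all.

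Of the 10 tested genes for ubiquitination and trafficking, Mib1, the ligase that lets ligand-bearing cells activate Notch, was at 0.99, 0.88 and 0.67, with a mean of 0.85 ± 0.16 and a limma adjusted p of 0.095. Dtx3, a Deltex family gene, was at -1.89, -0.94 and -1.75, with a mean of -1.53 ± 0.51 and a limma adjusted p of 0.061. Dtx4 was at -2.47, 0.47 and -2.48 and took both signs. Mib1 was among the most even genes of the pathway over the arrays, while Dtx3 followed the order of arrays seen for Dll3.

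The receptor is cut by ADAM proteases and by gamma-secretase, for which 8 genes were tested. Psen2, a catalytic subunit of gamma-secretase, was at 0.65, 1.16 and 1.30, with a mean of 1.04 ± 0.34 and a limma adjusted p of 0.086. Aph1a, another subunit, was at 0.67 ± 0.36, and the protease gene Adam17 at 1.52, -0.10 and 1.56. In the nuclear complex, Fbxw7, which marks the freed Notch domain for degradation, was at 0.88 ± 0.71, and the coregulator genes Snw1 and Kat2b at -0.27 ± 0.12 and -0.35 ± 0.47. These genes are active in nearly all cells, and 0 of the 18 passed the adjusted threshold.

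Of the other targets, Efnb2, the ephrin ligand of arteries, was at 0.34, 1.29 and 0.53, with a mean of 0.72 ± 0.50 and a limma adjusted p of 0.215. Hes7, a gene of the segmentation clock, was at -0.45 ± 0.28 and Hes2 at 0.27 ± 0.19. Efnb2 and Hes2 were higher on all arrays, as were Hey2 and 22.5% of all genes. None of Efnb2, Hes2 and Hey2 passed the test.

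Among the proneural genes, which Hes factors repress, Neurog2 and Neurod1 were lower on the same arrays as Hes5. Neurog2 was at -2.40, -0.20 and -4.16, with a mean of -2.25 ± 1.98 and a limma adjusted p of 0.194. Neurod1 was at -0.83, -0.20 and -1.82. The 5 tested genes of this group had array medians of -1.16, -0.20 and -1.82, with array 2 nearest to 0 as for the neural progenitor markers.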

How the data were processed

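Per the labels' protocols, total RNA was amplified and Cy3- and Cy5-labelled cRNA hybridised on Agilent mouse 4x44K v2 arrays. The deposited scanner files hold spot and background brightness as intensity, read, per the file headers, by Feature Extraction 10.7.3.1, and a background-corrected, dye-normalized log10 ratio of red over green. The authors' deposited table holds log2 ratios. Regressed on the scanner ratios of 9971 bright spots, it gave slopes of 0.891, 0.911 and 0.958 for arrays 1, 2 and 3, which sets its scale and direction as log2 of mutant over wild type. Its medians were -0.01, 0.02 and -0.01. How it was centred and background-corrected is unknown. The submitters' processing notes name limma, version not stated.

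In R 4.3.3 with limma 3.58.1, local background was limited to 100 units, which touched 25 spots of array 2, followed by normexp (offset 50) and loess within arrays, giving control spots no weight. After removal of control and outlier spots, the spots of each probe were averaged. A probe was tested if all 3 arrays had it well above background in the same genotype or genotypes, that is, in the mutant, the wild type or both. The test was run with lmFit and eBayes, two-sided, over all 25496 probes. Levels were scaled between arrays with Aquantile. The brightest probe stood for a gene. RefSeq (GRCm38.p6) gave symbols by accession to 27234 probes, by symbol to 3576 and by synonym to 565, and 8054 kept their deposited name. Coordinates of probes are on mm9, per the file headers, and no exon was assigned, as no mm9 annotation was used. All arrays were on 1 slide. On simulated data, 0 of 100 probes changed by a log2 of 1 and 0 of 100 changed by a log2 of 2 passed the adjusted threshold, while 85% and 96% had an unadjusted p below 0.05. All other probes of the 25496 were simulated with no change, and each probe's observed variance served as its true one. In the real data 21.0% of probes had an unadjusted p below 0.05 in limma and 664 passed. The simulation therefore does not show what size of change can pass there.

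The members, lists, named genes and the background limit were chosen with earlier results of these data known. Named were all 10 genes, up to 3 genes of each pathway group by smallest p, and the 3 genes nearest to Hes5, Dll1, Notch3 and Hey1. Some genes that this rule takes are not reported here. Each array pairs 1 mutant with 1 wild-type RNA, so the ratio already carries the pairing by replicate number. The alternatives were other background limits, offsets, normalizations, filters and probe choices, a dye term, an intensity trend, a separate-channel fit, the scanner's and the authors' ratios, a threshold of 0.1 and leaving out each replicate.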

Additional observations from a re-analysis of the deposited data

How the results depend on the processing

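The 13 probes of the 10 genes were recomputed under up to 19 other settings. Dll1, both Dll3 probes, Jag1 and Hes5 stayed lower and Hey1, Hey2 and the Notch1 probe with the GAA run stayed higher under each setting that gave a value. Settings that changed only the filter, the trend, the pairing, the threshold or the choice of the brightest probe left each mean ratio unchanged. They could therefore not change a sign. With a gene's probes averaged, the Notch1 value of 1.76 was a mean of both its probes, as was that of Dll3. With replicates left out, Hey1 was at 0.11 without replicate 1 and 1.07 without replicate 3, and Jag1 at -0.59 without replicate 1, against 0.57 and -0.95 as analysed. No probe passed as analysed, and which passed elsewhere turned on the setting. The count of member probes past the adjusted threshold was 2 with an offset of 16 and with the scanner's log ratio (the brighter Dll3 probe and the Notch1 probe with the run), 1 with scaling between arrays, with a filter on both genotypes, with an intensity trend and with no replicate block, that is, the separate-channel fit that ignores the pairing (that Notch1 probe), 6 with a dye term and 3 at a threshold of 0.1. With replicates left out in turn it was 0 to 6, with 0 without replicate 1 or 3 and 6 without replicate 2, namely Dll1, both Dll3 probes, Jag1, Hes5 and the Notch1 probe with the run. The arrays that remain without replicate 2 both have the mutant in Cy3, which leaves genotype and dye confounded. A dye term separates them but fits array 2 exactly, and so does not separate the dye from replicate 2. By the brightest probe the counts were 2, 2, 1, 1, 1, 1, 5 and 3 in the same order, and 0 to 5 with replicates left out. Of the 49 other pathway genes 2 passed with an offset of 16, with the scanner's ratio and with no replicate block, 1 with the trend, 9 with a dye term, 5 at a threshold of 0.1 and 0 to 19 with replicates left out. The counts over all probes under the same settings, given next, belong beside these.

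All probes past the threshold, 664 of 25496 as analysed, numbered 0 without the background limit (3985 at an unadjusted limma p below 0.05) and 0 with the authors' values (5201). Without a filter 142 of 38615 passed, and with the filter on both genotypes 663 of 22499. Of 19667 genes, 258 passed with a gene's probes averaged and 325 with the brightest probe. Of 25496 probes, 601 passed with scaling between arrays, 942 with no replicate block and 1033 with the trend. With the offset of 16 it was 1139, and with the scanner's ratio 1315. At a threshold of 0.1 it was 1945, with a dye term 3900, and with replicates left out 0 to 7191. The neural minus vascular difference, -2.14 ± 0.34, was -1.75 ± 1.01 without the limit, -1.70 ± 0.27 with the authors' values and -2.09 ± 0.49 with a gene's probes averaged. Probes near 0 changed sign. The Notch1 probe without the run was at 0.012 with a dye term and -0.29 to 0.12 with replicates left out, Notch2 at -0.0078 to 0.44 with replicates left out, Notch3 at 0.0067 with median centring, 0.21 with a dye term and -0.53 to 0.29 with replicates left out, and Hes1 at 0.17 without the limit, 0.019 with median centring and -0.36 to 0.58 with replicates left out. The causes of these changes were not tested, and 3 arrays limit every value here.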

Other observations

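Beyond the Notch1 probe, runs of GAA triplets went with high ratios in a graded way. The 48 probes tested with at least 5 triplets had a median ratio of 3.67, the 17 with exactly 4 had 2.34 and the 69 with 3 had 0.50. A mean log2 ratio above 2 was found for 44 of the 48, 11 of the 17 and 14 of the 69. The run was looked for after the values of the Notch1 probe were seen, and these counts are descriptions with no test.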
